A study of Mus musculus with 7 samples.

Results

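The genes described here code for the central proteins of pre-mRNA splicing: the SR proteins (Srsf genes), the hnRNP proteins (Hnrnp genes), the SF3a and SF3b subunits of the U2 particle (Sf3a and Sf3b genes) and the proteins of the small nuclear ribonucleoproteins, or snRNPs (Snrp genes). Members were taken by name from the gene symbols of the deposited count table, leaving out symbols marked as pseudogenes, which gave 49 of 34592 genes. There were 11 Srsf, 18 Hnrnp, 8 Sf3a or Sf3b and 12 Snrp genes, and all 49 had enough reads to enter the test, which covered 17389 genes.

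RNA was sequenced from 7 mouse Group 3 medulloblastomas (G3 MBs), a Myc-driven tumor of the cerebellum. The tumors grew in the cortices of young adult CD1-nu/nu mice, which lack T cells, from cells of a single tumorsphere line, # 19568. This line started from granule neuron progenitors of postnatal Trp53-/-;Cdkn2c-/- mouse pups that carried a retroviral Myc-IRES-GFP, and both groups share these alleles and the Myc transgene. Before implantation the cells received a lentivirus, without sorting for infected cells: 4 tumors are labelled as overexpressing WDR11 from the EF1 promoter (WDR11OE), and 3 are controls. The treatment protocol and the methods give the controls an empty vector, whereas their treatment label reads none. Tumors were taken when the mice became moribund. The labels number the libraries of the groups in separate series, so the library series and the condition cannot be told apart.

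The introduced gene was looked at first. Values are CPM, counts scaled to a library of 1000000 reads after TMM normalization. The row for human WDR11 was at 2.03, 2.19 and 3.13 in control replicates 1 to 3 and 4.38, 2.11, 3.05 and 0.624 in WDR11OE replicates 1 to 4, from 57 to 185 reads per tumor. The groups overlapped, with a log2 fold change of 0.05 (SE 0.58, adjusted p = 0.961; exact permutation test over all 35 splits, two-sided p = 0.83). The reads of this row therefore go against the labels, and the groups are named below as labelled. Controls had 73 to 102 of these reads, and what they came from was not tested. The paper reports more WDR11 transcript by qRT-PCR in tumors of this line with enforced WDR11. It also reports the protein in tumorspheres from such tumors. Whether these were the tumors sequenced here is not stated. How reads were shared between the human and the mouse row is not given in the sources used here. Mouse Wdr11 was at 58.3 to 59.3 CPM in the controls and 61.0 to 68.9 CPM in the WDR11OE-labelled tumors, without overlap. Its log2 fold change was 0.16 (SE 0.06, adjusted p = 0.0910). Myc was lower in the WDR11OE-labelled tumors (278 to 431 CPM against 812 to 1109 CPM), with a log2 fold change of -1.40 (adjusted p = 0.00227). Reads were present in every tumor for Trp53 (27.8 to 53.9 CPM) and Cdkn2c (15.2 to 26.8 CPM), the genes deleted in the progenitors; reads outside a deleted part, or from host cells, would count here. Of 16 granule lineage and proliferation genes, 12 entered the test. The list summed to 1485 to 1880 CPM in the controls and 1775 to 2056 CPM in the WDR11OE-labelled tumors. The proliferation gene Mki67 lay at 613 to 923 CPM of this. Only 1 gene of the list, Atoh1, had no read in any tumor, which allows up to 0.0329 to 0.0924 CPM at 3 reads. Total counts lay between 33417175 and 41397427 in the controls and between 32116095 and 87141305 in the WDR11OE-labelled tumors, and the 49 splicing genes took 1.0 to 1.25% of them. Over all genes above 0 in average log2 CPM, WDR11OE replicate 4 correlated with WDR11OE replicates 1 and 2 at 0.887 and 0.901 (Pearson), within the range of pairs across the labels (0.889 to 0.950) or below it, and with WDR11OE replicate 3 at 0.971. WDR11OE replicates 1 and 2, whose titles share a number, were the closest pair (0.993). Their counts differed by more than counting error (chi-square of 21.1 per degree of freedom over genes, the lowest of the pairs within a group), which does not show that they came from separate animals. They were counted as 2 tumors, and counts without each of them are given.

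Introns are removed by the spliceosome, which is assembled from the U1, U2, U4, U5 and U6 snRNPs. Each of the first 4 of these carries a ring of Sm proteins around its RNA; U1 recognizes the 5′ splice site, and U2, held by SF3a and SF3b, the branch point. SR proteins bind exonic enhancers and promote the use of nearby splice sites, while many hnRNP proteins coat the pre-mRNA and often act as silencers. SR and hnRNP genes are also known to hold exons or introns whose use sends the transcript to nonsense-mediated decay. Counts per gene hold all such transcripts together, so that a level below is a sum over isoforms.

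Promoters of the changed genes at both ends are shown to let the proximal sequence be read beside the expression values. Each is the 250 bases before the RefSeq transcription start (GRCm38.p6, plus strand), for the 2 highest and the 2 lowest changed members with a single start in the table. The stretches are chr12:80945249-80945498 for Srsf5, chr2:143062819-143063068 for Snrpb2, chr10:80798485-80798734 for Sf3a2 and chr2:75659009-75659258 for Hnrnpa3. Capitals mark exact matches, on either strand, to any of 8 motifs searched, of which 4 had a match in these windows. Motifs that overlap run together. For ETS factors the letters searched were CCGGAAG, while for SP1-like factors they were GGGCGG, called the GC box here. The third motif was the CCAAT box, and the last was the E-box, whose letters read CACGTG.
Srsf5: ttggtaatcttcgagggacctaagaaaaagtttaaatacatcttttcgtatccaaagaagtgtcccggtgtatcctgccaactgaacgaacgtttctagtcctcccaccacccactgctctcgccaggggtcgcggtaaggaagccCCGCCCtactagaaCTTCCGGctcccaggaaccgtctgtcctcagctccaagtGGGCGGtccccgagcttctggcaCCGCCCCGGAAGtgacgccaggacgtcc
Snrpb2: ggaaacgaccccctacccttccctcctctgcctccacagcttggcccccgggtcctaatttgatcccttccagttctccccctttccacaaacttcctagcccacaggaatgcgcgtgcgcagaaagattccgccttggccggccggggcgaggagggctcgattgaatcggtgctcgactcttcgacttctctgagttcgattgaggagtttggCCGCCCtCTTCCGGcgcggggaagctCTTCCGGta
Sf3a2: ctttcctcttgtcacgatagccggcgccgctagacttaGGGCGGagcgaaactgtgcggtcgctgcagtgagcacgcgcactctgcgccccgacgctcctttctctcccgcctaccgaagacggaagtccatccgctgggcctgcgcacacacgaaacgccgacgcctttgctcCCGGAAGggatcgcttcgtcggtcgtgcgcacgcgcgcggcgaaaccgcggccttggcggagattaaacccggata
Hnrnpa3: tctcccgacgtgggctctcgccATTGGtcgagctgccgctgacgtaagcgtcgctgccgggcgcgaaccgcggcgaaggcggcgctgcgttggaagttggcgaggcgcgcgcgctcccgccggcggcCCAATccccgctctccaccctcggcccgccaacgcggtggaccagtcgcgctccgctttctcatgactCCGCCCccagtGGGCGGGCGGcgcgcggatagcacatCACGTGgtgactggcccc

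All 4 windows were rich in G and C (56.8, 60.8, 65.2 and 73.2%), and the genes above and below the controls shared letters: ETS matches stood in the Srsf5, Snrpb2 and Sf3a2 windows and GC boxes in all 4. An ETS match lay within 30 bases of the start in Srsf5 and Snrpb2, and the E-box of Hnrnpa3, a motif bound by MYC and MAX, ended 13 bases before its start. RefSeq windows were found for 44 of the 49 members, 61 windows beside 32851 for the 27025 genes of the table, expressed or not. A gene was counted where any of its windows matched. The median GC content was 60.4% for the members and 52.4% for all genes, and the shares below were not matched for it. The ETS letters occurred in 14 of these 44 (31.8%) against 7.83% of the 27025 genes of the table, and the GC box in 31 (70.5% against 35.4%). CCAAT was found in 22 (50% against 37.5%) and the E-box in 4 (9.09% against 6.86%). The TATA box was found in 6 (13.6% against 14.3%) and CRE in 2 (4.55% against 1.77%). NRF1 was found in 1 (2.27% against 0.877%) and YY1 in 1 (2.27% against 1.83%). By direction, the ETS motif stood in 5 of 11 lower and 5 of 13 higher members, the GC box in 10 of 11 and 10 of 13, the E-box in 3 of 11 and 1 of 13. A match describes letters in the window and says nothing of binding.

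The study set WDR11OE against control tumors to ask which genes differ with enforced WDR11; the values below compare the labels. Of the 49 splicing genes, 27 changed at an adjusted p under 0.05 in edgeR's quasi-likelihood test, adjusted over all 17389 genes tested, beside 33.9% of all genes: 13 were lower (26.5% of the members, beside 15.8% of all genes) and 14 higher (28.6%, beside 18.1%). Among the 14085 tested genes at or above the average level of the lowest member, 18.5% were lower and 20.3% higher. The same 27 members had groups that did not overlap, which was so for 42.7% of all genes (19.1% lower, 23.5% higher). Log2 fold changes ran from -0.91 to 1.05, with a median of 0.06 beside 0.08 over all genes tested. A 2-fold call, which also needed a log2 fold change of at least 1 and an average log2 CPM above 0, was made for 1 member, Srsf5, and for 5.81% of all genes (3.43% lower, 2.38% higher). The remaining 22 members did not pass the test. Without WDR11OE replicate 1, 9 members were higher (beside 9.12% of all genes) and 12 lower (beside 11.8%). Without WDR11OE replicate 2 the same counts stood beside 9.65% and 12.8% of all genes. The 2-fold call was lost without control replicate 2 or WDR11OE replicate 4. With a trend of counts by GC content removed, described further on, 5 members were lower (beside 8.6% of all genes) and 2 higher (beside 6.48%). In tumor pieces, fewer cells of a type and less RNA per cell cannot be told apart.

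**Figure D1:**
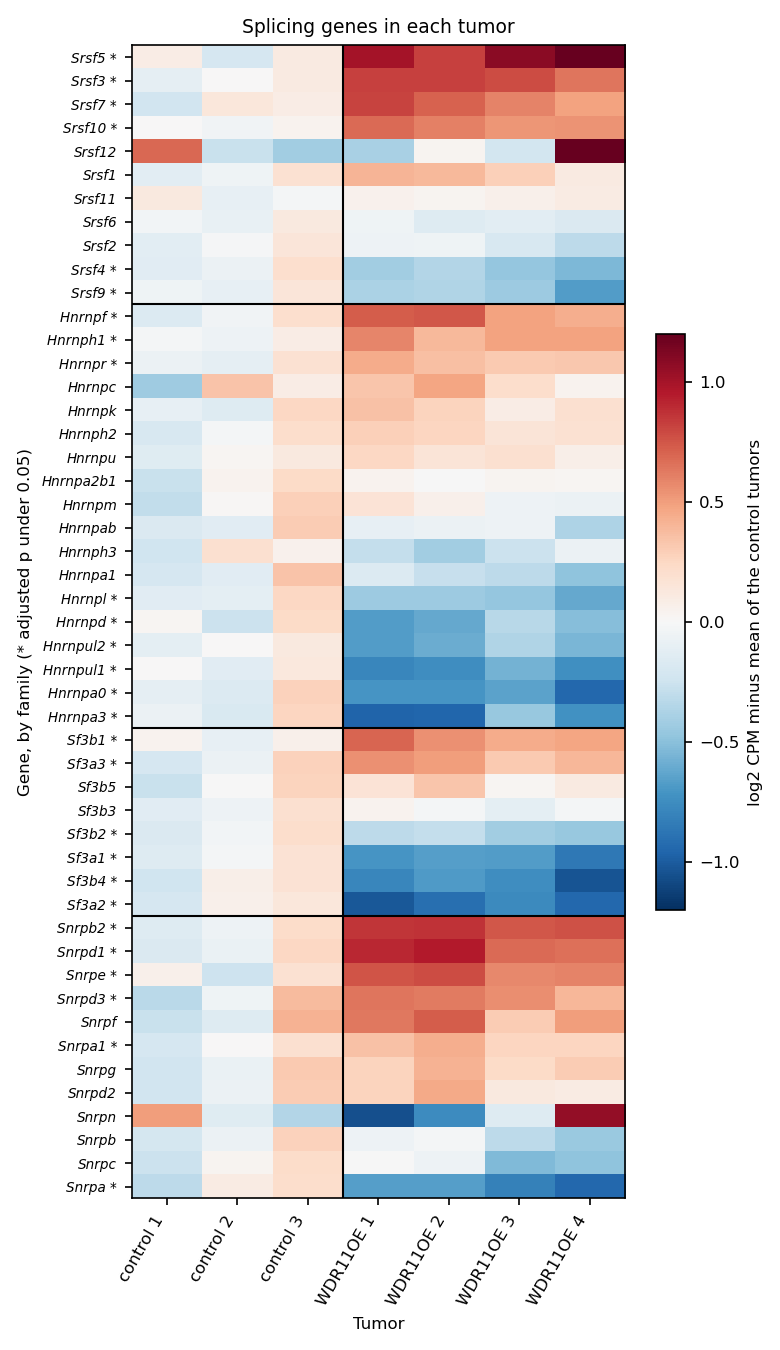
Heat map of the 49 splicing genes (rows, grouped by family, an asterisk marking adjusted p under 0.05) in the 7 tumors (columns). Color gives log2 CPM minus the mean of the 3 control tumors, and differences beyond the color scale take its end color. Srsf5, Snrpb2 and Snrpd1 are red and Sf3a2, Sf3b4 and Hnrnpa3 blue in all 4 WDR11OE-labelled tumors.

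Of the 11 SR protein genes, 4 were higher (36.4%, beside 18.1% of all genes) and 2 lower (18.2%, a share near the 15.8% of all genes). Their median log2 fold change was 0.30. Only Srsf5 kept its call once the GC trend was removed, as 1 of 11 higher (beside 6.48% of all genes), and the median turned to -0.0373. Srsf5 (chr12:82046491-82051494 in NCBIM37, plus strand), a shuttling SR protein first described as an immediate early gene of regenerating liver, was read at 210.3, 171 and 213 CPM in the controls and at 394, 349, 417 and 476 CPM in the WDR11OE-labelled tumors. The lowest WDR11OE-labelled tumor stood well above the highest control, and the log2 fold change was 1.05 (SE 0.13, adjusted p = 0.00161), the largest rise among the members. Srsf3, the smallest SR protein, which couples splicing to 3′ end choice and mRNA export, was at 352, 380.1 and 411 CPM in the controls against 672, 669, 652 and 592 CPM (log2 fold change 0.76, SE 0.09, adjusted p = 0.00146). Srsf10, known as a splicing repressor when dephosphorylated, was at 204, 197 and 209.9 CPM against 326, 309, 294 and 296 CPM (log2 fold change 0.59, SE 0.07, adjusted p = 0.00138). In both genes the groups stood apart, and Srsf7, a relative of Srsf3, was also higher (log2 fold change 0.65, adjusted p = 0.00660). These 3 calls were lost with the GC trend removed, at log2 fold changes of 0.36 for Srsf3 (adjusted p = 0.212), 0.05 for Srsf10 (adjusted p = 0.859) and 0.33 for Srsf7 (adjusted p = 0.308). Srsf4 (65.9, 68.8 and 83.0 CPM against 54.1, 56.4, 52.4 and 49.8 CPM) and Srsf9 (61.6, 59.8 and 71.0 CPM against 49.2, 49.8, 47.4 and 40.2 CPM) were lower, with log2 fold changes of -0.45 (SE 0.09, adjusted p = 0.00996) and -0.46 (SE 0.10, adjusted p = 0.0116); these calls too were lost with the GC trend removed (adjusted p = 0.218 and 0.309). Exons of Srsf4 are overlapped over 43.3% of their length by Gm12992 on the opposite strand.

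Srsf1, the SR protein first isolated as a general splicing factor lay at 523, 549.8 and 647 CPM against 756, 746, 697 and 614 CPM. Here WDR11OE replicate 4 fell inside the control range and the test was missed (log2 fold change 0.30, SE 0.12, adjusted p = 0.0935). Without that tumor the adjusted p was 0.0473. Srsf2, Srsf6 and Srsf11 had log2 fold changes of -0.16, -0.13 and 0.06 and overlapping groups. Srsf12 was close to absent, at 0.858 to 1.89 CPM in the controls and 0.876 to 3.02 CPM in the WDR11OE-labelled tumors. Summed over the 11 genes, SR transcripts took 2325, 2367 and 2652 CPM in the controls and 3327, 3215, 3152 and 3017 CPM in the WDR11OE-labelled tumors, without overlap.

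Of the 18 hnRNP genes, 6 were lower (33.3%, beside 15.8% of all genes) and 3 higher (16.7%, beside 18.1%). The median log2 fold change was -0.07, and 9 values were negative and 9 positive. Summed over the 18 genes, the groups overlapped (5538 to 7092 CPM in the controls, 5926 to 6582 CPM in the WDR11OE-labelled tumors). Removal of the GC trend left 4 calls, all of them lower, and a median of -0.20. Hnrnpul1 (chr7:26506517-26539749, minus strand), an RNA-binding relative of the nuclear scaffold protein hnRNP U, was at 204, 185 and 223 CPM in the controls and at 119, 122, 137 and 122 CPM in the WDR11OE-labelled tumors. Its log2 fold change was -0.71 (SE 0.09, adjusted p = 0.00151), and its close relative Hnrnpul2 went from 172, 188 and 202 CPM to 117, 124, 146 and 128 CPM (log2 fold change -0.54, SE 0.10, adjusted p = 0.00508). For Hnrnpu itself, the member with the most reads (919 to 1103 CPM in the controls, 1063 to 1208 CPM in the WDR11OE-labelled tumors), the groups overlapped and the log2 fold change was 0.16 (SE 0.11, adjusted p = 0.281). Hnrnpu thus did not pass the test that both U-like genes passed, and the difference between the genes was not tested.

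Within the A/B group, which holds the classical exon silencers, Hnrnpa0 (219, 211 and 286 CPM against 145, 144, 151 and 123 CPM) had a log2 fold change of -0.76 (SE 0.13, adjusted p = 0.00410). Hnrnpa3 (chr2:75497318-75507464, plus strand) went from 256, 237 and 321 CPM to 138, 139, 196 and 163 CPM (log2 fold change -0.77, SE 0.16, adjusted p = 0.00906). Hnrnpa1, the best studied silencer, was at 319.8, 336 and 467 CPM against 329, 304, 297 and 263 CPM, with overlapping groups (log2 fold change -0.33, SE 0.15, adjusted p = 0.136). Hnrnpa2b1, the reader of zip-code sequences in transported mRNAs, had a log2 fold change of 0.01 (SE 0.12, adjusted p = 0.958). Corrected for the GC trend, the log2 fold changes were -0.58 for Hnrnpa0 (adjusted p = 0.0674), -1.18 for Hnrnpa3 (adjusted p = 0.00625), -0.26 for Hnrnpa1 (adjusted p = 0.406) and -0.45 for Hnrnpa2b1 (adjusted p = 0.153). Reads of Hnrnpa1 and Hnrnpa3 are uncertain, since 83.0% and 82.5% of the 50-base words in their exons also occur in other genes, mostly processed copies. Hnrnpab, which is related to Hnrnpd, was at 335, 343 and 466 CPM against 353, 359, 360.4 and 292 CPM and did not pass (log2 fold change -0.16, SE 0.14, adjusted p = 0.434). Hnrnpd itself, or AUF1, which binds AU-rich elements and promotes mRNA decay, was lower (log2 fold change -0.54, SE 0.13, adjusted p = 0.0174), a call lost without control replicate 3.

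Among the G-run binding proteins of the H/F group, Hnrnph1 was higher at 696, 607, 648 and 647 CPM against 455, 443 and 494 CPM in the controls (log2 fold change 0.48, SE 0.09, adjusted p = 0.00549), but with the GC trend removed its direction turned (-0.10, adjusted p = 0.702). Hnrnpf followed at 613, 621, 517 and 501 CPM against 332, 360.5 and 426 CPM (log2 fold change 0.60, SE 0.13, adjusted p = 0.0110), although 53.9% of its 50-base words occur elsewhere and the adjusted p was 0.0738 without WDR11OE replicate 1 and 0.0660 without WDR11OE replicate 2. Hnrnpf was at 0.67 with the GC trend removed (adjusted p = 0.0531). In both genes the groups stood apart, whereas Hnrnph2 and Hnrnph3 did not pass the test. Hnrnpr, a cytoplasmic and nuclear RNA-binding protein of neurons, was higher (151, 147 and 180.2 CPM against 216, 204, 197 and 198 CPM), with a log2 fold change of 0.36 (SE 0.09, adjusted p = 0.0206). Its call was lost when control replicate 1 or 2 or WDR11OE replicate 1 or 2 was left out (adjusted p = 0.0687 to 0.127), and with the GC trend removed (adjusted p = 0.254). Hnrnpl, which binds CA repeats, was lower at 293, 293, 288 and 259.9 CPM against 362, 366 and 471 CPM (log2 fold change -0.50, SE 0.11, adjusted p = 0.0139; -0.38 and adjusted p = 0.164 with the GC trend removed). The other hnRNP genes, Hnrnpc, Hnrnpk and Hnrnpm, had log2 fold changes of 0.24, 0.22 and 0.01 and did not pass.

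**Figure D2:**
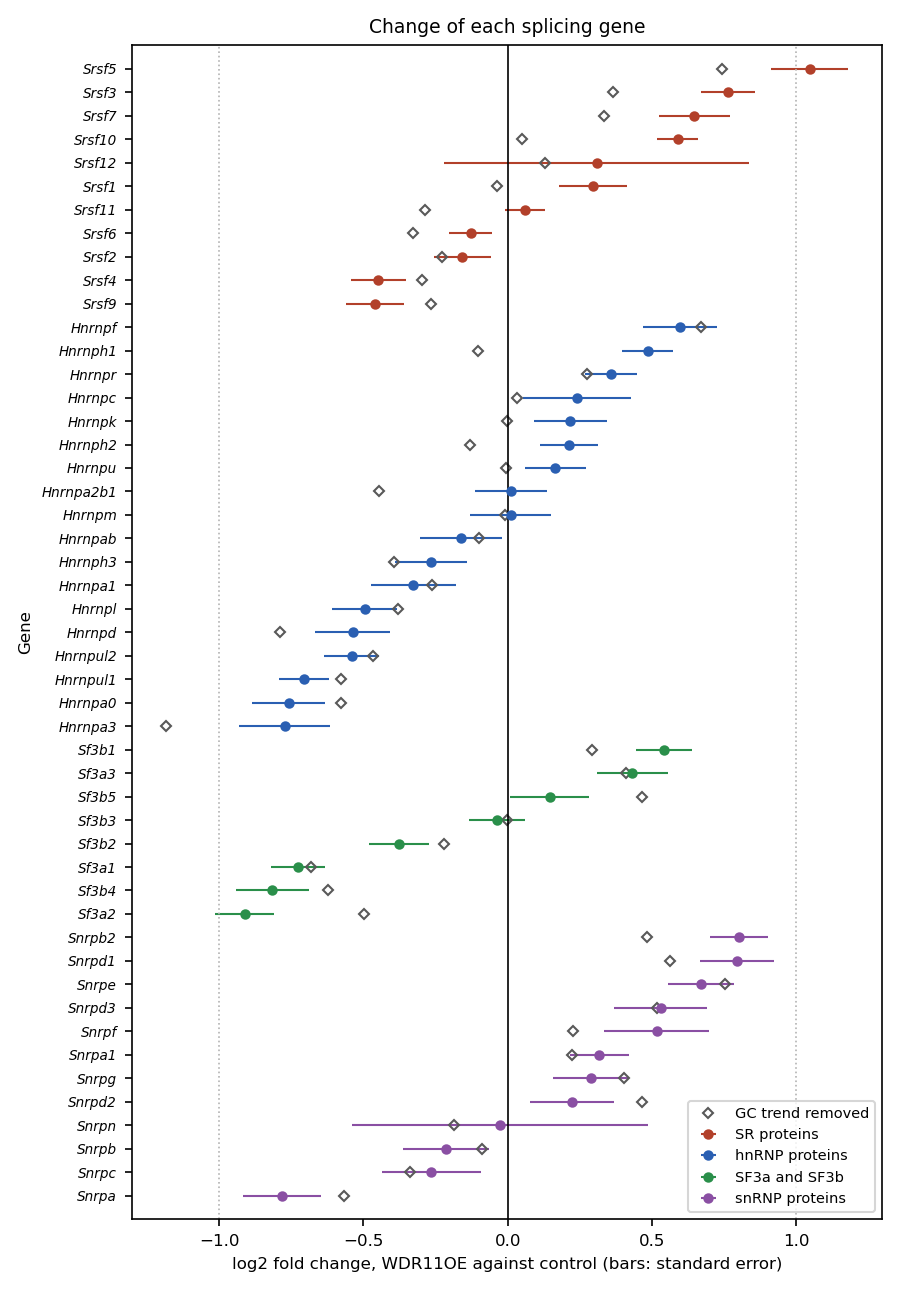
Log2 fold change of WDR11OE-labelled against control tumors for each of the 49 genes (filled points, bars give the standard error, n = 4 and 3), by family, with the value after the GC trend was removed (open diamonds). Dotted lines mark a 2-fold change. Srsf5 lies just beyond the upper line, and the diamond of Srsf10 lies near 0.

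The U2-associated SF3 genes, a family of only 8, had the largest share of changed members, 6 of 8 (beside 33.9% of all genes). Of these, 4 were lower (50% of the family, beside 15.8% of all genes) and 2 higher (25.0%, beside 18.1%). The median log2 fold change was -0.21. After removal of the GC trend only Sf3a1 kept its call, as 1 of 8 lower (beside 8.6% of all genes), and the median was -0.11. In SF3a, the 3-subunit complex that bridges the Sm part of U2 and SF3b, the subunits had opposite signs. Sf3a2 (chr10:80260943-80267669, plus strand) was at 52.9, 63.7 and 67.0 CPM in the controls and at 30.1, 32.6, 35.8 and 31.7 CPM in the WDR11OE-labelled tumors, the largest fall among the members (log2 fold change -0.91, SE 0.10, adjusted p = 0.00120). Sf3a1 (chr11:4060353-4082544, plus strand) was lower with it, at 93.8, 97.4, 96.6 and 84.9 CPM against 138, 151 and 173 CPM (log2 fold change -0.73, SE 0.09, adjusted p = 0.00167). Sf3a3 (chr4:124392020-124409704, plus strand) was higher, at 107, 104, 91.1 and 96.5 CPM against 63.7, 69.5 and 88.4 CPM (log2 fold change 0.43, SE 0.12, adjusted p = 0.0313). All 3 genes had groups that did not overlap, with WDR11OE replicate 3 closest to the controls for Sf3a3. The call of Sf3a3 was lost without control replicate 1 or 2 or WDR11OE replicate 1 or 2 (adjusted p = 0.0895 to 0.132). Corrected values were -0.50 for Sf3a2 (adjusted p = 0.0584), -0.68 for Sf3a1 (adjusted p = 0.0232) and 0.41 for Sf3a3 (adjusted p = 0.150) with the GC trend removed.

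SF3b holds the branch point adenosine, and its largest protein, Sf3b1, recurrently mutated in blood cancers, was at 751, 676, 629.9 and 640.4 CPM against 475, 432 and 482 CPM in the controls (log2 fold change 0.54, SE 0.10, adjusted p = 0.00539). Sf3b4, the subunit affected in Nager syndrome, was lower (35.0, 43.1 and 46.3 CPM against 24.0, 25.7, 24.6 and 20.0 CPM), with a log2 fold change of -0.82 (SE 0.13, adjusted p = 0.00324), and 48.7% of its 50-base words occur in Gm7935. Sf3b2 was also lower (log2 fold change -0.38, SE 0.10, adjusted p = 0.0291), a call kept in only 1 of the 7 fits that left out a tumor, the fit without control replicate 1. By contrast, Sf3b3 (-0.04) and Sf3b5 (0.15) had overlapping groups. Sf3b1 and Sf3b4 lay on opposite sides of the controls in every WDR11OE-labelled tumor, and with the GC trend removed their log2 fold changes were 0.29 (adjusted p = 0.297) and -0.62 (adjusted p = 0.0550).

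These opposite changes widened the range of transcript levels within SF3a and within SF3b. On the scale of CPM per exon kilobase, the highest SF3a subunit was 1.04 to 1.26 times the lowest in the 3 controls and 2.43 to 3.39 times the lowest in the 4 WDR11OE-labelled tumors, with Sf3a3 the highest and Sf3a2 the lowest in all 7. In the controls, Sf3a1, Sf3a2 and Sf3a3 averaged 25.1 ± 2.89, 23.0 ± 2.79 and 26.5 ± 4.63 CPM per kilobase (SD, n = 3), differences within their spread. In the WDR11OE-labelled tumors the averages were 15.2 ± 0.93, 12.2 ± 0.90 and 35.8 ± 2.59 CPM per kilobase (SD, n = 4). For SF3b the ratio was 4.19 to 4.74 in the controls and 8.94 to 11.2 in the WDR11OE-labelled tumors, and Sf3b4 was the lowest subunit throughout. The Sm ring went the other way, from 2.45 to 2.96 down to 1.87 to 2.10, with Snrpd2 highest in every tumor. These ratios were not corrected for the GC trend and rest on exons summed over all annotated transcripts of a gene, and 16.1% of the exon length of Sf3a2 is overlapped by Plekhj1 on the opposite strand.

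**Figure D3:**
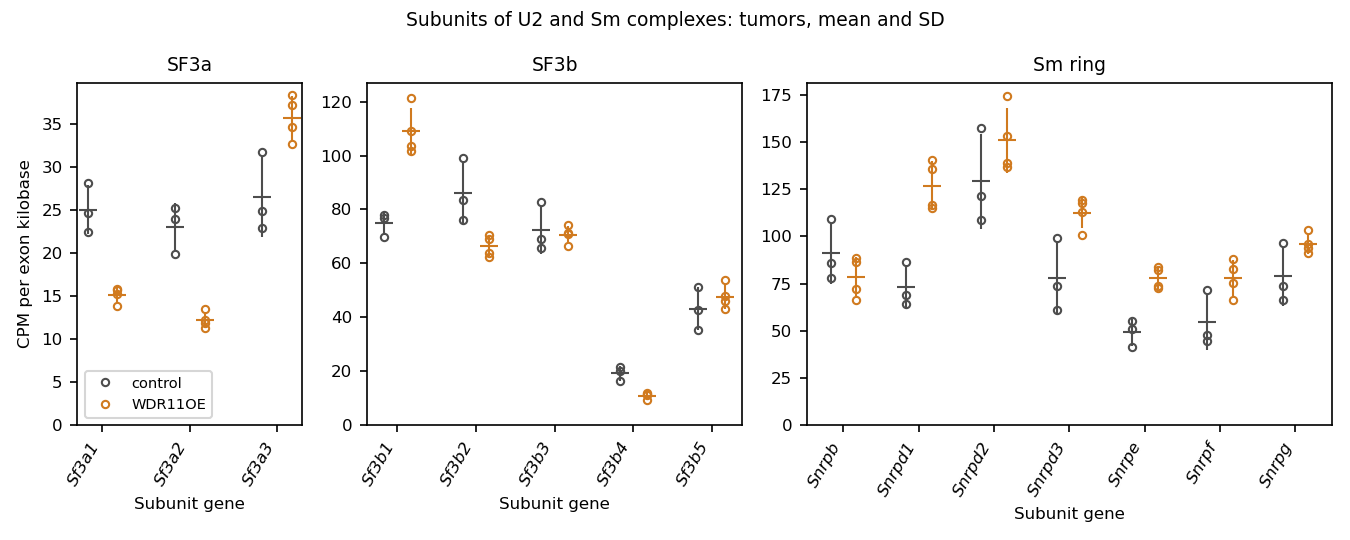
CPM per exon kilobase of the SF3a, SF3b and Sm ring subunits in each tumor (circles; gray control, n = 3, orange WDR11OE, n = 4), with mean (horizontal line) and SD (vertical line). The 3 SF3a subunits lie together in the controls and apart in the WDR11OE-labelled tumors.

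Of the 12 snRNP protein genes, 5 were higher (41.7%, beside 18.1% of all genes) and 1 lower (8.33%, beside 15.8%). Their median log2 fold change was 0.30. Only Snrpe kept its call after removal of the GC trend, as 1 of 12 higher (beside 6.48% of all genes), with a median of 0.31. Snrpa and Snrpb2 code for the A protein of U1 and the B″ protein of U2, closely related proteins that bind stem-loops of their RNAs, and they moved in opposite directions. Snrpa (chr7:27972024-27981290, minus strand) was at 64.2, 85.4 and 92.3 CPM in the controls and at 50.3, 50.2, 45.5 and 41.5 CPM in the WDR11OE-labelled tumors (log2 fold change -0.78, SE 0.13, adjusted p = 0.00462). Snrpb2 (chr2:142888775-142898589, plus strand) was at 38.7, 41.4 and 50.3 CPM against 78.2, 78.6, 72.6 and 73.4 CPM (log2 fold change 0.80, SE 0.10, adjusted p = 0.00153). Corrected for the GC trend these were -0.57 for Snrpa (adjusted p = 0.0838) and 0.48 for Snrpb2 (adjusted p = 0.101). Snrpa1, which codes for the A′ protein of U2, the partner of B″, was higher by a smaller amount (log2 fold change 0.32, SE 0.10, adjusted p = 0.0476). Its call was kept in only 1 of the 7 fits that left out a tumor, the fit without control replicate 3, and not by DESeq2. Snrpc, the C protein of U1 that contacts the 5′ splice site, had a log2 fold change of -0.26 (SE 0.17, adjusted p = 0.287).

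Of the genes for the 7 Sm ring proteins, 3 were higher (beside 18.1% of all genes) and 4 did not pass. Snrpd1 was at 53.9, 57.6 and 72.3 CPM against 114, 117, 97.5 and 96.4 CPM (log2 fold change 0.79, SE 0.13, adjusted p = 0.00364; 0.56 and adjusted p = 0.0999 with the GC trend removed). Snrpe (chr1:135500448-135506868, minus strand) was at 69.9, 56.4 and 75.7 CPM against 113, 115, 99.4 and 101 CPM (log2 fold change 0.67, SE 0.11, adjusted p = 0.00449). Snrpd3 was the third to pass (log2 fold change 0.53, SE 0.16, adjusted p = 0.0405), and lost its call without control replicate 1 or 2 or WDR11OE replicate 1, 2 or 3. Snrpd2, the ring gene with the highest level per kilobase, did not pass at 66.7, 74.6 and 96.4 CPM against 94.0, 107, 85.1 and 83.8 CPM (log2 fold change 0.22, SE 0.15, adjusted p = 0.285). Snrpf (0.52), Snrpg (0.29) and Snrpb (-0.21) also missed the test. Ccdc38 and 4933408J17Rik, both on the opposite strand, together overlap 85.4% of the exon length of Snrpf. Snrpn, an imprinted gene of neurons that can stand in for Snrpb, spread most among the members outside Srsf12: 40.2, 25.6 and 22.2 CPM in the controls and 13.7, 16.7, 25.5 and 59.1 CPM in the WDR11OE-labelled tumors (log2 fold change -0.03, SE 0.51, adjusted p = 0.976). Its highest tumors in each group, control replicate 1 and WDR11OE replicate 4, were also those with the highest sum of neuronal markers in their group.

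Sharing of reads with other genes was counted for every member. At least 10% of the 50-base words also occurred in genes elsewhere in the genome for 11 members, and at least 10% of the exon length was overlapped by another gene for 6; the strand setting of the authors' counting is not given in the sources used here. The remaining 33 members had neither, and 8 of them were lower (beside 15.8% of all genes) and 11 higher (beside 18.1%). Where a copy had its own row, its counts moved with the member in several cases: Gm11847, a copy of Hnrnpa3, had a log2 fold change of -0.75 (adjusted p = 0.00531), Gm7935, a copy of Sf3b4, of -1.21 (adjusted p = 0.00236) and Gm6430, a copy of Hnrnpf, of 0.78 (adjusted p = 0.00406). Other copies did not: Gm12355, a copy of Srsf3, had a log2 fold change of 0.15 (adjusted p = 0.676), and Gm5145, a copy of Snrpa, had no reads. Copies of Snrpf (Gm13092, 0.20) and Snrpg (Gm8186, -0.02) did not pass, like their members. Gm10120, a copy of Snrpd2, passed (0.73, adjusted p = 0.0216) although Snrpd2 did not. Whether reads shared with a copy came from the copy or from the member cannot be told apart.

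GC content moved with the changes. The 13 lower members had a median exon GC content of 54.1% (39.8 to 61.6%), the 14 higher members 42.3% (37.3 to 50.4%), and the 22 others 45.7%. Across the 49 members the Spearman correlation of log2 fold change with exon GC content was -0.54, and across 13344 protein-coding genes above 0 in average log2 CPM it was -0.39; genes within the same libraries are not independent. A smooth trend of counts with GC content was then removed in each tumor. Of the 49 members, 5 remained lower (Hnrnpa3, Hnrnpd, Hnrnpul1, Hnrnpul2 and Sf3a1) and 2 higher (Srsf5 and Snrpe), beside 8.6% lower and 6.48% higher over all genes. The value of Srsf5 became 0.74 (adjusted p = 0.0111), that of Snrpe 0.75 (adjusted p = 0.0230), that of Hnrnpa3 -1.18 (adjusted p = 0.00625) and that of Sf3a1 -0.68 (adjusted p = 0.0232). Srsf10 went to 0.05 and Hnrnph1 to -0.10, and the median of the members was -0.09 beside 0.08 over all genes. When 1 tumor was also left out, only Hnrnpa3 kept its call in every fit, and 82.5% of its 50-base words also occur in other genes. Hnrnpd lost its call without control replicate 3 and Srsf5 without control replicate 2. Sf3a1 kept its call only without control replicate 1 or WDR11OE replicate 2 or 4. Snrpe did so only without control replicate 3 or WDR11OE replicate 3 or 4, and Hnrnpul1 and Hnrnpul2 only without WDR11OE replicate 4. Whether the trend belongs to the libraries or to the tumors was not tested.

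**Figure D4:**
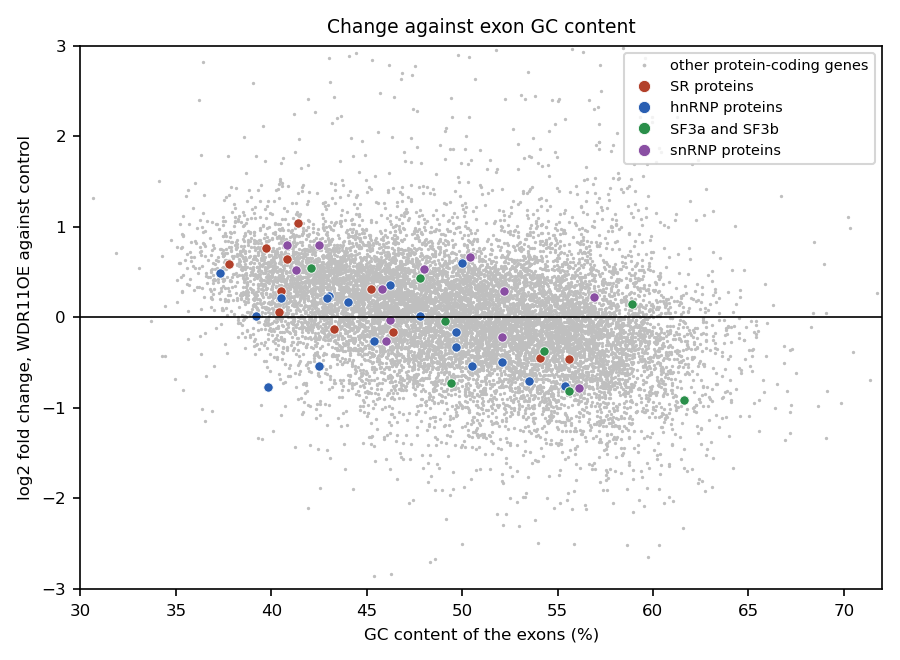
Log2 fold change of WDR11OE-labelled against control tumors (vertical axis) by GC content of the exons in percent (horizontal axis), with the 49 splicing genes colored by family over 13295 other protein-coding genes in gray, of which 51 lie outside the axes. Points run from upper left to lower right, and Hnrnpa3 lies low at 39.8% GC.

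Levels differed widely among the 49 genes. Per exon kilobase, Hnrnpa1 (332 ± 71.8 CPM per kilobase in the controls, 265 ± 24.1 in the WDR11OE-labelled tumors; SD, n = 3 and 4), Hnrnpk (196 ± 30.5 and 227 ± 17.6) and Hnrnpu (171 ± 15.7 and 192 ± 10.2) were among the highest, and Srsf12 the lowest (0.39 ± 0.18 and 0.48 ± 0.32). Hnrnpu and Hnrnpa2b1 (171 ± 29.1 in the controls) were closer than their spread. The order shifted with the labels: among the 49 members in the order of levels, Srsf5 stood at place 29 in the controls and at place 16 in the WDR11OE-labelled tumors, Snrpd1 at places 21 and 7, and Hnrnpa0 at places 12 and 27. Over the members, the log2 CPM of any 2 controls correlated at 0.984 to 0.995 (Pearson, over the 49 genes), of any 2 WDR11OE-labelled tumors at 0.975 to 0.999, and across the labels at 0.924 to 0.963.

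Other genes of the pathway were counted from lists by role, 214 genes tested in all, of which 36 were lower (16.8%, beside 15.8% of all genes) and 61 higher (28.5%, beside 18.1%). After removal of the GC trend, 22 were lower (10.3%, beside 8.6%) and 17 higher (7.94%, beside 6.48%). Among 77 other core spliceosome genes, 12 were lower (15.6%) and 30 higher (39.0%), with a median log2 fold change of 0.19. With the GC trend removed 5 were lower (6.49%) and 8 higher (10.4%). Luc7l3, a U1-associated protein with an SR-like tail, was at 144, 132 and 125 CPM against 314, 279, 309 and 332 CPM (log2 fold change 1.21, adjusted p = 0.000858), and Prpf4b, a kinase of the pre-catalytic spliceosome, was also higher (0.74). Wbp11 (-0.94) and the branch point binding protein Sf1 (-0.69), which U2 replaces, were lower. Among 33 SR protein kinases and SR-like genes, 5 were lower (15.2%) and 11 higher (33.3%). Rbm39 (0.98) and Rsrc2 (0.85) were above and Scaf4 (-1.32) and Scaf1 (-0.99), which bind the tail of RNA polymerase II, below the controls. With the GC trend removed, however, 6 of these 33 genes were lower (18.2%) and 3 higher (9.09%). Of the 29 Lsm and SMN complex genes, which serve Sm assembly and U6, 3 were lower (10.3%) and 7 higher (24.1%). Lsm12 (-0.57) and Lsm2 (-0.65) were among the lower, Gemin6 (0.90) and Lsm5 (0.90) among the higher. With the GC trend removed 1 was lower and 1 higher (3.45% each).

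Of 56 splicing regulators tested, 11 were lower (19.6%) and 9 higher (16.1%), shares near those of all genes (15.8% and 18.1%). With the GC trend removed 9 were lower (16.1%, beside 8.6%) and 4 higher (7.14%, beside 6.48%). Msi1, the neural progenitor protein Musashi, was at 29.4, 35.0 and 29.3 CPM in the controls and at 6.13, 6.82, 8.07 and 8.68 CPM in the WDR11OE-labelled tumors (log2 fold change -2.07, SE 0.15, adjusted p = 0.000858). Elavl2, a neuronal Hu protein, was at 5.61, 5.77 and 4.84 CPM against 16.2, 15.97, 15.2 and 20.5 CPM (log2 fold change 1.65, SE 0.16, adjusted p = 0.00104). Rod1, the PTB paralog also called Ptbp3, was higher (1.46) and Khsrp lower (-0.95). Of 19 genes of the exon junction complex and nonsense-mediated decay, 5 were lower (26.3%, beside 15.8% of all genes) and 4 higher (21.1%, beside 18.1%). With the GC trend removed 1 was lower and 1 higher (5.26% each, beside 8.6% and 6.48% of all genes). The core partners of the junction complex divided, with Magoh (0.99, adjusted p = 0.00129) and Magohb (1.03, adjusted p = 0.00256) above and Casc3 (-0.80, adjusted p = 0.00168) below the controls, and Acin1 was lower (-0.56).

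Some markers of other cells differed between the groups. The counts below stand beside 15.8% of all genes lower and 18.1% higher. Of 11 skeletal muscle genes tested, 9 were higher, and their list summed to 5.15 to 7.64 CPM in the controls and 49.97 to 144 CPM in the WDR11OE-labelled tumors; Mb was at 0 in all 3 controls. Endothelial markers were lower for 3 of 9 genes (168 to 218 CPM against 114 to 148 CPM in sum). Of 14 neuronal markers, 0 passed edgeR's test after adjustment and 0 at an unadjusted p under 0.05, but their sum ran from 82.1 to 495 CPM in the controls and from 13.9 to 748 CPM in the WDR11OE-labelled tumors. Astrocytic markers had 1 higher of 8, oligodendrocytic markers 1 lower of 9 and microglial markers 0 of 12 (0 at an unadjusted p under 0.05), and of 12 granule lineage and proliferation genes 2 were higher, Top2a and Ccnb1. The part of these cells in the changes of the splicing genes was not tested. WDR11OE replicate 4 was the tumor with the most neuronal reads and the fewest human WDR11 reads. Without it, 12 splicing genes were lower (beside 16.9% of all genes) and 14 higher (beside 17.6%).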

How the data were processed

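RNA was from 7 tumors (4 WDR11OE, 3 control). Per the labels, libraries were made with a TruSeq RNA kit, whereas the methods name total stranded RNA; the submitters' processing notes name CASAVA 1.7, STAR, BWA, HTSeq and mm9. The authors mapped reads to NCBIM37.67 and deposited raw read counts per gene, counted with HTSeq on GENCODE; strand and multi-mapping settings are not given in the sources used here.

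Counts were analysed in R 4.3.3 with edgeR 4.0.16 (filterByExpr, TMM, two-sided quasi-likelihood test, condition as the only term, Benjamini-Hochberg over 17389 genes). CPM use TMM library sizes and log2 CPM a prior count of 2. limma 3.58.1 with voom, DESeq2 1.42.0, other scalings, filters, a stricter threshold, GC and length trends (loess, span 0.3) and leaving out each tumor were alternatives. Coordinates, exon length, GC content and 50-base words came from GENCODE vM1 on NCBIM37, which matched 33651 genes (97.3%; 45 of them, Srsf2 included, by symbol). Scripts were tested on simulated data. Replicate numbers are names in accession order. Nothing says that the tumors came from separate infections, so p-values measure the spread between these tumors, and read counts cover counting error only. The members and all gene lists were chosen with earlier results of these data known. Values per tumor are given for, in each family, the 3 lower and 3 higher changed members with the smallest p, the highest level per kilobase, and any 2-fold or outlying member; in each wider list the 2 lower and 2 higher genes with the smallest p are named. Genes named beyond this were chosen after their values were seen.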

Additional observations from a re-analysis of the deposited data

Results flagged for a closer look

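The log2 CPM of every member in the 4 WDR11OE-labelled tumors was checked for a tumor far from the other 3. Of 58 values tested, which include 4 family sums and the human WDR11, Wdr11, Myc, Trp53 and Cdkn2c rows, 2 stood apart; chance marks about 1 in 20. Hnrnpab was at a log2 CPM of 8.19 (292 CPM) in WDR11OE replicate 4, below the other 3 tumors (353, 359 and 360.4 CPM), with a gap of 0.897 of the range, beyond Dixon's critical value. Hnrnpl was at a log2 CPM of 8.02 (259.9 CPM) in the same tumor, below 293, 293 and 288 CPM, with a gap of 0.841 of the range.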

How the results depend on the processing

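Of 494 values of the named members under other settings, 431 kept their direction and side of the threshold, 54 lost the call, 4 gained one and 5 changed sign. limma-voom called 13 members lower and 14 higher (beside 15.4% and 17.7% of all genes), and DESeq2 13 and 13 (beside 19.3% and 17.8%). No named member changed sign under another scaling, which moved the median of all genes from 0.08 to between 0.04 and 0.12. The 2-fold call of Srsf5 was lost (0 calls) with DESeq2, with DESeq2 size factors and with no filter on low counts. At an adjusted p under 0.01, 9 members were higher (beside 8.91% of all genes) and 60 genes of the wider lists changed. With the GC trend removed, 5 members were lower (beside 8.6% of all genes), 2 higher (beside 6.48%) and 10 did not overlap between groups. The median was then -0.0903, 39 genes of the wider lists changed, and Srsf1 (-0.0373) and Hnrnph1 (-0.10) changed sign. With the length trend removed, 8 were lower (beside 11.3% of all genes), 9 higher (beside 10.2%) and 17 did not overlap. At this setting 64 genes of the wider lists changed, and Snrpd2 changed sign (-0.14). With both trends removed, 10 were lower (beside 8.17% of all genes) and 2 higher (beside 4.85%), 17 did not overlap, the median was -0.0763, 33 genes of the wider lists changed, and Snrpd2 was at -0.000766. Leaving out 1 tumor gave 11 to 14 lower and 9 to 17 higher members, beside 11.7 to 16.9% and 9.12 to 17.6% of all genes. These fits also gave 0 to 2 2-fold calls, medians of 0.02 to 0.13, 25 to 35 members without overlap and 63 to 91 genes of the wider lists. Of these, 9 higher members were left without WDR11OE replicate 1 or without WDR11OE replicate 2 and 63 genes of the wider lists without WDR11OE replicate 1. The 2-fold calls were 2 without control replicate 1 and 0 without control replicate 2 or WDR11OE replicate 4. Hnrnpab ran from -0.249 to 0.00712 and changed sign without control replicate 3. Added after the data were seen, the GC trend together with leaving out 1 tumor gave 1 to 6 lower and 0 to 7 higher members. Over all genes, 3.64 to 10.9% were lower and 1.33 to 13.0% higher in these fits. Without WDR11OE replicate 4 there were 6 lower (beside 10.9%) and 7 higher (beside 13.0%). Apart from what these settings take out, the cause was not tested. No paired analysis was possible because the replicate numbers are only names. Srsf12, at about 1 CPM, is the member whose depth limits what can be seen.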
